A study of Mus musculus with 2 samples.

Results

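The expressed antisense RNAs of aortic macrophages from dyslipidemic mice are described here in 2 models of dyslipidemia, named PDR and SKYD. These genes carry the biotype antisense in the gene table, and they were chosen by a mean of at least 1 FPKM (fragments per kilobase, scaled to library size) over both libraries. Of 2826 antisense rows among 54532 genes, 130 met this rule. All mice were ApoE-/- on the C57BL/6J background, were 6 weeks old by the labels and were fed a high-fat diet. PDR stands for phlegm-dampness retention, modelled by 4 weeks of that diet. SKYD stands for spleen and kidney yang deficiency, and these mice received propylthiouracil, which lowers thyroid hormone, by gavage at 10 mg/kg per day for 4 weeks, followed by 2 weeks of high-fat diet. Cells of the aorta were sorted on F4/80 and CD11b, and 1 library was made per model from a pool of 5 mice. No difference below therefore has a replicate check, and the drug, the length of the diet, age and syndrome cannot be told apart.

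Natural antisense RNAs are transcribed from the strand opposite to another gene. Some start at the promoter of their coding neighbour and run the other way, some lie inside an intron, and some meet the coding gene at its end. A few are known to act on the neighbouring gene or to serve as hosts of microRNAs, but most have no assigned role, and they are usually less abundant than coding mRNAs. Here the overlapping coding gene, or partner, is the protein-coding gene on the opposite strand that shares the most bases with the antisense gene. A partner was found for 108 genes and none for the other 22.

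Some of the antisense RNAs carry microRNAs, which are shown because their sequences lie within genes described below. F630028O10Rik holds the hairpin of miR-223, a microRNA abundant in myeloid cells, and Gm15987 holds miR-7649. A further host is Gm35853, with miR-1941. The mature sequences are from RefSeq (GRCm38.p6), with the seed (bases 2 to 8) in capitals. The 4 seeds differ from each other.
miR-223-3p: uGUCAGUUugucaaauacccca
miR-223-5p: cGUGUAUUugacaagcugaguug
miR-7649-3p: uCUCUCCAgcacugcuuguuucu
miR-7649-5p: uGACAGCAgugcuguagacaug

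Start regions were read for the 48 antisense RNAs with a RefSeq start within 100 bases of the start in the table, as windows of 250 bases before to 50 bases after the RefSeq start. The windows held a median of 15.5 CG dinucleotides, against 7 over all 32817 RefSeq windows. In the 13 windows of genes that start within 1000 bases of their partner's start the median was 27 (range 8 to 49). For genes without a partner, the nearest opposite-strand coding gene was used. In the other 35 it was 7 (range 0 to 43). The window with 43 was that of 1810021B22Rik, which overlaps Trabd by 729 bases but was classed by its partner Panx2. Rbm3os, whose start lies 451 bases from that of Rbm3, a cold-induced RNA-binding protein, shows the first kind with 27 CG. Gm4632, which lies inside Vwa8 far from its start, shows the second with 1. Both are printed on their own strand with each CG in capitals.
Rbm3os, chrX:8145177-8145476, + strand: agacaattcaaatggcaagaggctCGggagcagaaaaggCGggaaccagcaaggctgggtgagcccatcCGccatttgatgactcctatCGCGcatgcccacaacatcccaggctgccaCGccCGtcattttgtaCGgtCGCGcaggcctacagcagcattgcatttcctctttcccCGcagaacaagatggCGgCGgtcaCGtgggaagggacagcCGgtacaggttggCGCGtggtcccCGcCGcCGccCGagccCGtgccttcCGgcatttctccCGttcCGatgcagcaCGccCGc
Gm4632, chr14:79199141-79199440, - strand: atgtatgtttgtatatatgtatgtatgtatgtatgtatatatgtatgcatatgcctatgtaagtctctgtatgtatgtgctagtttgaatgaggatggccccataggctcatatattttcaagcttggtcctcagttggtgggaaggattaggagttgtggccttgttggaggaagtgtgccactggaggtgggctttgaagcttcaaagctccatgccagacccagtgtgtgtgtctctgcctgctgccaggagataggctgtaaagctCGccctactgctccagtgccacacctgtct

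A set of 5 short motifs were searched on both strands of the same windows. GAGGAA, the core of the site of the myeloid factor PU.1, was in 37.5% of the 48 windows and in 28.3% of all windows. CCAAT was in 29.2% against 37.4%, TATAAA in none of the 48 against 13.6%, and TTCNNNGAA, the gamma-activated site, in 4.17% against 8.29%. The core of the interferon-stimulated response element, a pair of GAAA with 2 other bases between them, was in 1 window (2.08% against 3.43%), that of F630028O10Rik. This window is shown with the response element and the 2 GAGGAA motifs, all of them on the opposite strand, in capitals. The element and the second GAGGAA share bases. A match only says that these letters are present.
F630028O10Rik, chrX:96239676-96239975, + strand: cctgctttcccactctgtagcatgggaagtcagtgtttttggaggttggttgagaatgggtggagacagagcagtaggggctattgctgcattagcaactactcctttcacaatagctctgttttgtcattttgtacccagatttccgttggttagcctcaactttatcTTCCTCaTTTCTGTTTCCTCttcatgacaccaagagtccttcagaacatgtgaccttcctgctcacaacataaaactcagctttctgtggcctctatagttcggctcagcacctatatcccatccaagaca

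Both libraries were deep, with 23086889 reads on genes in PDR and 25427863 in SKYD, recovered from FPKM and gene length as whole numbers for 100% of genes above 0. The antisense RNAs took 15293 of these reads in PDR (0.0662%) and 25243 in SKYD (0.0993%). Their median was 123 reads over both libraries together, against 1022 for all 10399 genes with a mean of at least 1 FPKM, and 48 of the 130 had fewer than 50 reads in each library. Intervals below are 95% exact (Clopper-Pearson) intervals for the split of a gene's reads, and they cover counting error only. The sorted proteins' genes were present, Adgre1 (F4/80) at 87.3 FPKM in PDR and 93.3 in SKYD and Itgam (CD11b) at 8.84 and 14.4. Apoe, the gene deleted by the labels, had 345 and 67.7 FPKM, and reads per gene do not show from which exons. Of 18 macrophage markers, 6 were more than 2-fold higher in SKYD and none in PDR (sum 27312 FPKM in PDR against 50836 in SKYD, most of it Lyz2), and 17 of 18 T lineage and thymocyte markers were more than 2-fold higher in SKYD (sum 203 against 1694 FPKM). Of B cell markers, 10 of 12 were more than 2-fold higher in PDR (sum 1934 against 477 FPKM), as were 10 of 12 markers of effector T and NK cells, 14 of 16 of hepatocytes and 21 of 34 interferon response genes. The part of these cells in the antisense differences was not tested, and fewer cells of a type and less RNA per cell cannot be told apart in such pooled RNA.

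Of the 130 antisense RNAs, 27 (20.8%) were more than 2-fold higher in SKYD on the scale of log2(FPKM + 1), where 6.91% of all 10399 genes were. In the other direction, 14 (10.8%) were more than 2-fold higher in PDR, where 7.38% of all genes were. The remaining 89 were within 2-fold. The median difference, PDR minus SKYD, was -0.25 against -0.0035 over all genes. There were 7 antisense RNAs with 0 reads in PDR (5.38%) and 1 with 0 reads in SKYD (0.769%), beside 0.846% and 0.365% of all genes and 4.62% and 1.03% of lincRNAs. The choice of the genes bears on these counts, since 19 reached 1 FPKM in PDR only and 22 in SKYD only, and these had to differ. Among the 89 that reached 1 FPKM in both libraries, 4 exceeded 2-fold toward PDR and 14 toward SKYD (4.49% and 15.7%). Over all 9271 genes that did so the shares were 5.88% and 4.59%.

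The share differed with the number of reads. With fewer than 100 reads over both libraries, 15.0% of 60 antisense RNAs exceeded 2-fold toward PDR and 16.7% toward SKYD, close to the 15.3% and 18.3% of all 813 genes at that depth. From 100 to 500 reads, 7.69% of 52 antisense RNAs were higher in PDR and 19.2% in SKYD, beside 8.20% and 8.83% of 2366 genes. With 500 reads or more, 1 of 18 antisense RNAs was higher in PDR, and 7 in SKYD (5.56% and 38.9%), where the shares were 6.22% and 5% among 7220 genes. In the same order of depth, 6.67%, 3.85% and 5.56% of antisense RNAs had 0 reads in PDR. For all genes these shares were 7.13%, 0.930% and 0.111%. With fewer than 100 reads, 1.67% of antisense RNAs and 4.31% of all genes had 0 reads in SKYD. The 195 lincRNAs of at least 1 FPKM, which lie between genes, showed nearly the same split as the antisense RNAs, with 11.3% more than 2-fold higher in PDR and 20% in SKYD. The 73 genes of the biotype processed_transcript had 4.11% and 21.9%, and the 23 of the biotype bidirectional_promoter_lncRNA went the other way with 3 genes higher in PDR and 1 in SKYD. Among 8795 protein-coding genes, the shares were 6.16% and 5.38%.

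**Figure D1:**
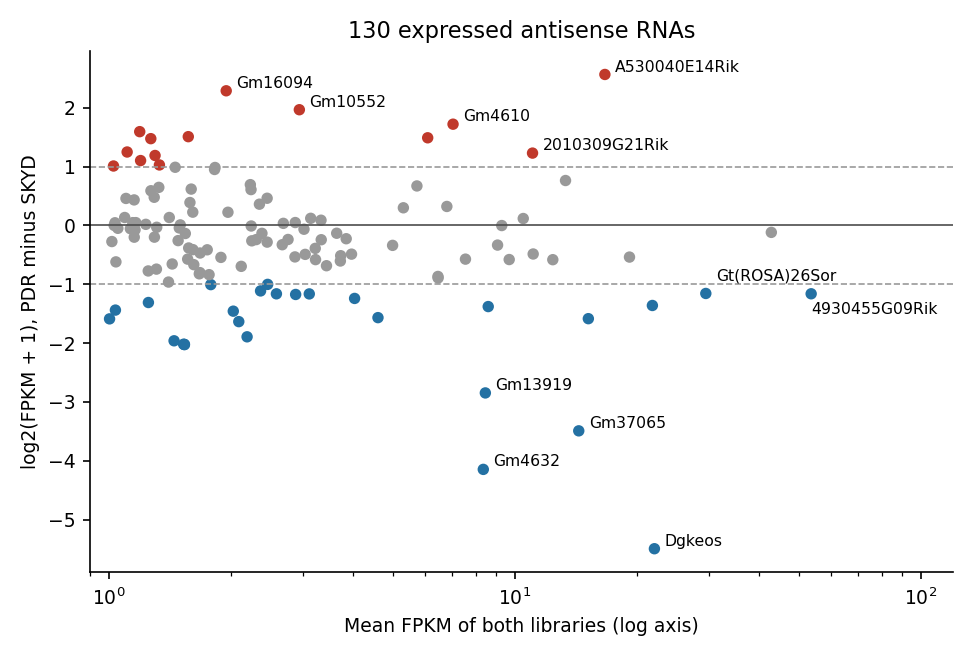
Each point is 1 of the 130 antisense RNAs, with the mean FPKM of both libraries on a log x axis and the difference in log2(FPKM + 1), PDR minus SKYD, on the y axis. Dashed lines mark 2-fold, red points (14) lie above it in PDR and blue points (27) in SKYD, and the 4 lowest points are Dgkeos, Gm4632, Gm37065 and Gm13919.

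**Figure D2:**
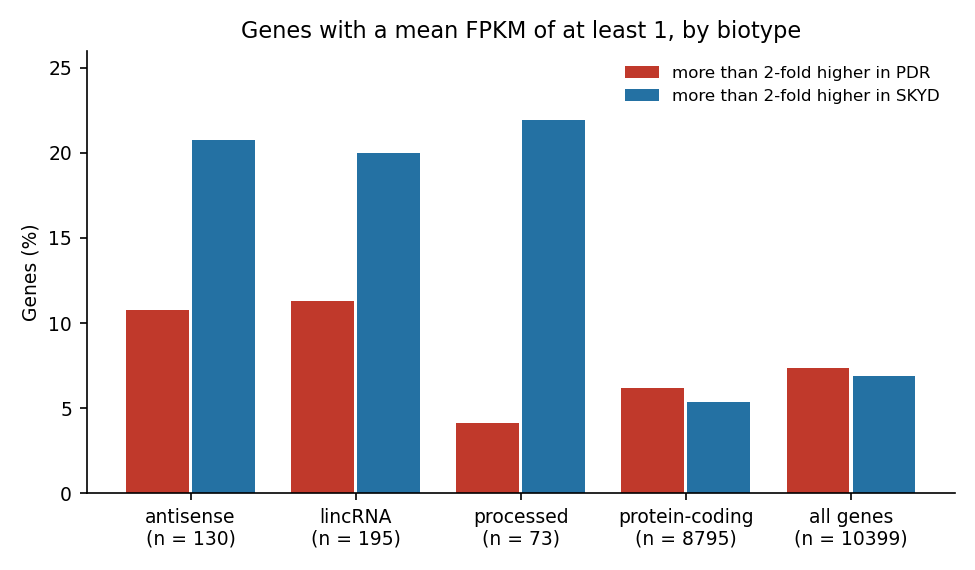
Bars give the percentage of genes with a mean of at least 1 FPKM that were more than 2-fold higher in PDR (red) or in SKYD (blue), by biotype as named in the table (processed is the biotype processed_transcript), with the number of genes under each pair of bars. The blue bar is 20.8% for antisense RNAs and 20% for lincRNAs, and 5.38% for protein-coding genes.

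The level was low for most of these RNAs. The mean was under 2 FPKM for 62 of them, at least 5 FPKM for 28 and at least 10 FPKM for 14. Just inside the rule were Gm38979 (1.71 FPKM in PDR and 0.344 in SKYD), 2810442N19Rik (0.826 and 1.21) and Gm14161 (0 and 2.01). Just outside it were AC153891.1 (0 and 1.995), Gm16120 (0.834 and 1.15) and Hk1os (0.328 and 1.65).

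The most abundant was 4930455G09Rik (ENSMUSG00000085761, chr4:142017898-142028996, + strand), with 32.8 FPKM in PDR and 74.6 in SKYD from 485 and 1174 reads. It was 2.27-fold higher in SKYD (95% CI 2.04 to 2.53). It overlapped no coding gene on the opposite strand. The nearest was Tmem51, a transmembrane protein gene 1996 bases away, with 58.6 and 68.2 FPKM. Gm15987 (chr6:128951204-128975029, - strand), the host of miR-7649, was next, with 41.0 FPKM in PDR and 44.6 in SKYD, and it barely differed. Its partner Clec2g, a C-type lectin of the natural killer gene complex, had 0.344 and 1.86 FPKM, so the antisense RNA was above the coding gene in both libraries.

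Gt(ROSA)26Sor (chr6:113067428-113077333, - strand) is the transcript of the ROSA26 locus, which is widely used for transgene insertion because it is active in most tissues. It had 17.9 FPKM in PDR and 41.1 in SKYD, from 713 and 1743 reads, and was 2.30-fold higher in SKYD (95% CI 2.10 to 2.51). Thumpd3, a tRNA methyltransferase gene that meets it end to end, had 10.1 and 5.98 FPKM, and so went the other way.

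Other abundant antisense RNAs were higher in SKYD and had partners at lower levels. Gm16104, inside the transcription factor gene Nfic, had 11.8 FPKM in PDR and 31.8 in SKYD, and Nfic had 1.88 and 3.54. Gm10369, inside the cytoskeletal kinase gene Limk1, had 7.08 and 23.2 FPKM, and Limk1 had 0.511 and 1.09. 1600010M07Rik, which runs across Zfp143, the cell cycle kinase gene Wee1 and the nuclear import gene Ipo7, had 15.4 and 22.9 FPKM, a difference under 2-fold. Its partners Zfp143, Wee1 and Ipo7 had 6.35, 2.19 and 1.10 FPKM in PDR and 4.34, 3.77 and 1.39 in SKYD. Among the 10 most abundant, only A530040E14Rik and Slc36a3os had more in PDR. Slc36a3os had 17.0 FPKM in PDR and 9.62 in SKYD, while Slc36a3, of an amino acid transporter family, had 0.740 and 0.102.

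**Figure D3:**
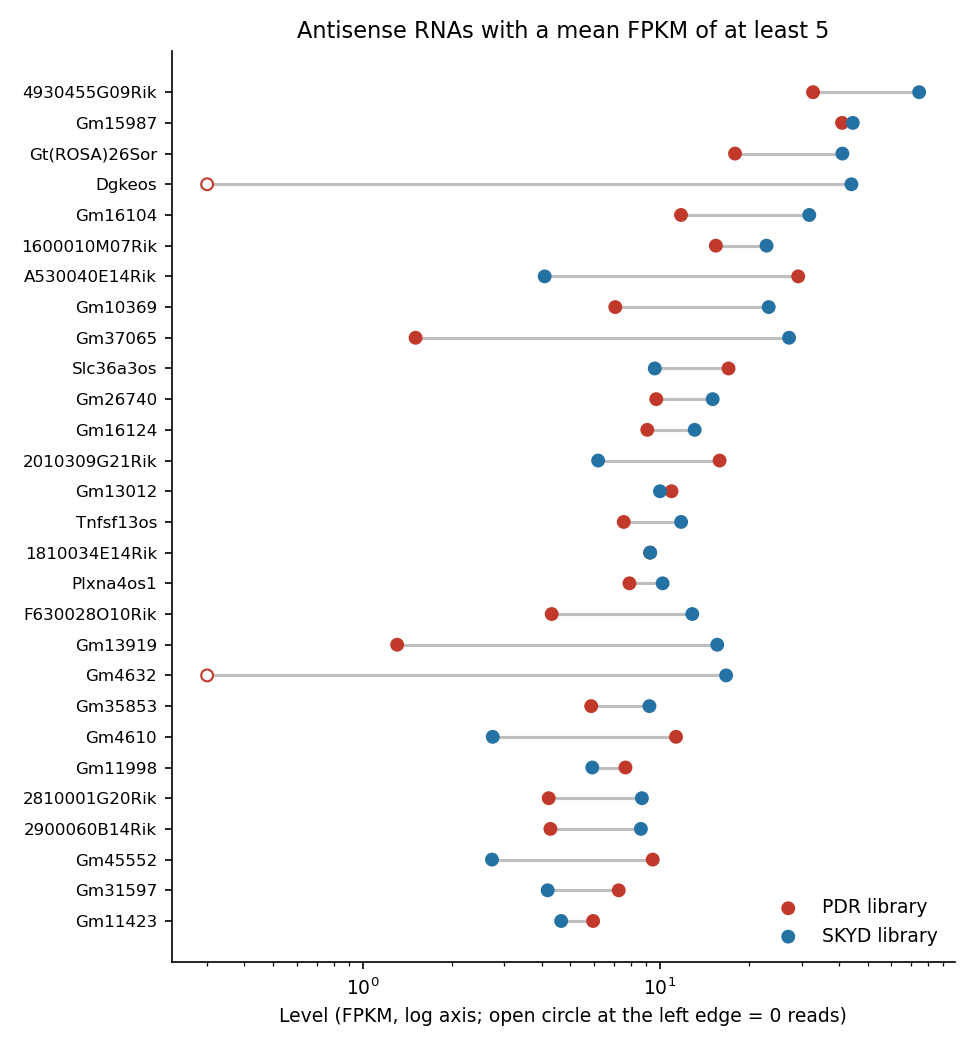
FPKM in the PDR library (red) and the SKYD library (blue) on a log axis for the 28 antisense RNAs with a mean of at least 5 FPKM, in order of their mean, with an open circle at the left edge for 0 reads. Dgkeos and Gm4632 had 0 reads in PDR, and the largest gap in the other direction is that of A530040E14Rik, at 29.2 and 4.10 FPKM.

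The largest difference was that of Dgkeos (ENSMUSG00000063109, chr11:89064729-89069098, + strand), with 0 FPKM in PDR and 44.1 in SKYD. The reads were 0 and 2352, and with a limit of 3 reads for a count of 0 the fold in favour of SKYD was at least 737. No gene without a read in PDR had more reads in SKYD. Dgkeos overlaps the start of Dgke, a lipid kinase gene that uses diacylglycerol, which had 0.218 FPKM in PDR and 0.768 in SKYD. Its neighbour on the same strand, Gm525, had 0.391 and 28.6 FPKM. Rag2 and Rag1, which cut antigen receptor genes in developing lymphocytes, also had 0 reads in PDR, with 2262 and 637 in SKYD, and Ptcra, the pre-T-cell receptor chain of thymocytes, had 0 and 475. There were 111 genes with 0 reads in PDR and at least 50 in SKYD, and 13 the other way. Whether these RNAs came from the same cells as the macrophage genes was not tested.

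Gm4632 (chr14:79178894-79199190, - strand), whose start region is shown above, had 0 reads in PDR and 221 in SKYD (0 and 16.7 FPKM), at least 69.2-fold higher against the same limit of 3 reads. Vwa8, the mitochondrial ATPase gene that contains it, had 0.408 and 0.225 FPKM. Rgcc, a cell cycle regulator gene on the same strand, had 39.3 FPKM in PDR and 339 in SKYD. Gm37065 (chr1:171909957-171919356, - strand) had 1.51 FPKM in PDR and 27.2 in SKYD from 75 and 1440 reads, 18.0-fold higher in SKYD (95% CI 14.3 to 23.1). It overlaps the start of Slamf6, a receptor gene of T, B and NK cells, which was nearly level at 13.9 and 12.6 FPKM. Cd84, of the same receptor family and farther away on the other side, was also level at 31.1 and 29.9. Gm13919 (chr2:102039629-102066725, + strand) had 1.31 and 15.6 FPKM from 60 and 762 reads, 11.9-fold higher in SKYD (95% CI 9.17 to 15.8). It lies inside Ldlrad3, a gene of the low-density lipoprotein receptor domain family, which had 1.79 and 1.17 FPKM. For Dgkeos and these 3 RNAs, the coding gene on the other strand was within 2-fold on the log2(FPKM + 1) scale. Dgke itself was 3.52-fold higher in SKYD at its low level (95% CI 2.50 to 5.05).

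The other antisense RNAs with 0 reads in PDR had fewer reads in SKYD, so their bounds are lower. BC065403, which meets Zfp280d end to end, had 135 reads in SKYD and was at least 42.3-fold higher. Rptoros, inside the gene of the mTORC1 subunit Rptor, had 90 reads and was at least 28.2-fold higher, and Rptor itself had 0.161 and 0.772 FPKM. Gm41077 and Gm16055 had 59 and 48 reads and were at least 18.5-fold and 15.0-fold higher. Gm14161, with 17 reads, was at least 5.33-fold higher. Among genes with 0 to 3 reads in a library, Gm31728 had 3 reads in PDR and 24 in SKYD, Gm16350 had 24 and 1, and Gm49431 had 22 and 2.

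F630028O10Rik (chrX:96239926-96243636, + strand), the host of miR-223, had 4.33 FPKM in PDR and 12.9 in SKYD from 335 and 1059 reads. It was 2.97-fold higher in SKYD (95% CI 2.62 to 3.37). It overlaps no coding gene on the opposite strand. The nearest, Vsig4, a complement receptor gene of tissue macrophages, was also higher in SKYD, with 3.13 FPKM in PDR and 38.2 in SKYD. The row of Mir223 itself had 0 reads in both libraries, so the mature microRNA was not measured here.

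In PDR the largest difference on the log2(FPKM + 1) scale was that of A530040E14Rik (chr1:85105946-85114035, + strand), with 29.2 FPKM in PDR and 4.10 in SKYD. The reads were 1594 and 238, and it was 7.13-fold higher in PDR (95% CI 6.22 to 8.20). In plain fold, Gm16094, Gm10552, Gm16350, Gm49431, Banf2os and Gm20319 differed more, from fewer reads. Of the coding genes it overlaps, C130026I21Rik had 2.28 and 1.04 FPKM and A530032D15Rik 13.9 and 3.37, and both were higher in PDR. These genes belong to a repeated family of Sp-like genes, so reads may be split between near-identical copies.

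Farther along chromosome 1, antisense RNAs next to Sp110 and inside Sp140 were also higher in PDR. Sp100, Sp110 and Sp140 encode interferon-inducible proteins of nuclear bodies that bind chromatin. Gm16094 (chr1:85599286-85599839, + strand) had 39 reads in PDR and 0 in SKYD, 3.89 and 0 FPKM, and was at least 13.8-fold higher. It lies 469 bases from Sp110, which had 13.8 FPKM in PDR and 7.38 in SKYD. Gm10552 (chr1:85604085-85611896, - strand) had 5.28 and 0.606 FPKM from 131 and 16 reads, 8.71-fold higher in PDR (95% CI 5.17 to 15.7). Sp140, which contains it, had 40.7 FPKM in PDR and 9.75 in SKYD, and Sp100 had 31.9 and 16.7. On the log2(FPKM + 1) scale Gm10552 and Sp140 differed by 1.97 and 1.96, but Sp140 was 4.18-fold higher in PDR, and at a pseudocount of 0.1 the difference of Gm10552 was 2.93.

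Gm4610 (chr3:122377097-122391811, - strand) had 11.3 FPKM in PDR and 2.74 in SKYD from 241 and 62 reads, 4.14-fold higher in PDR (95% CI 3.12 to 5.56). Bcar3, an adaptor gene of Src kinase signalling that contains it, had 3.59 and 0.657 FPKM. Banf2os had 2.80 FPKM in PDR and 0.335 in SKYD, and no read fell on Banf2. Gm16174, inside Bcl3, a gene of the NF-kappa-B family of regulators, had 2.75 and 0.896 FPKM from 26 and 9 reads, while Bcl3 had 17.1 and 22.4. 2010309G21Rik (chr16:19051367-19106749, + strand) runs through the immunoglobulin lambda locus and had 15.9 FPKM in PDR and 6.20 in SKYD, 2.56-fold higher in PDR (95% CI 1.93 to 3.43). Of the lambda genes, Iglv1 had 5051 and 1045 FPKM, Iglc1 2660 and 1050, and Iglc3 1259 and 350. Iglv2 went the other way, with 410 and 1246 FPKM, and Iglc2 was level at 1315 and 1258. The B cell markers named above moved with this group in the same direction, and their part was not tested.

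Over the 108 pairs, the antisense RNA and its partner were higher in the same library in 57, in different libraries in 46, and in 5 pairs the partner had no reads. The correlation of the 2 differences across pairs was weak (Pearson r = 0.20, Spearman rho = 0.11), and the pairs share the same libraries. Of the 24 antisense RNAs beyond 2-fold whose partner reached a mean of 1 FPKM, 20 had a partner within 2-fold on the log2(FPKM + 1) scale. In 36 pairs the antisense RNA and its partner were more than 2-fold apart, with the antisense RNA shifted toward SKYD in 23 and toward PDR in 13. On the same scale 8 partners differed by more than 2-fold, 4 in each direction. All 8 were among the 74 partners with a mean of at least 1 FPKM (5.41% in each direction, beside 7.38% and 6.91% of all genes).

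In 4 pairs both genes differed by more than 2-fold on this scale, each time in the same direction. These were Gm10552 with Sp140 and Gm4610 with Bcar3 in PDR, and Gm16587 with Selp and Gm16251 with Pvr in SKYD. Gm16587 had 1.83 FPKM in PDR and 7.37 in SKYD, from 37 and 159 reads. Selp, which encodes the adhesion receptor P-selectin of platelets and activated endothelium and contains Gm16587, had 5.75 and 23.97 FPKM. Gm16251 had 1.39 and 4.38 FPKM, beside Pvr, which encodes a nectin-like adhesion receptor, with 0.591 and 2.22. In 3 of the 4 pairs the antisense gene lies inside the partner. The strand setting of the counting is not given in the sources used here, and without strand, reads from partner introns cannot be told apart from those of an antisense gene inside them.

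The other partners that differed by more than 2-fold had an antisense RNA that did not on the log2(FPKM + 1) scale. Bfsp2, known as a lens filament gene, had 23.8 FPKM in PDR and 2.17 in SKYD, while 5830418P13Rik, which meets it end to end, had 1.23 and 1.91. Oasl1, an interferon-induced gene of the OAS family, had 7.20 and 3.05 FPKM. Gm13822, which starts 37 bases from Oasl1 on the other strand, had 0.984 and 2.54, but from only 8 and 22 reads. Drap1, a transcriptional corepressor gene, had 31.6 and 81.9 FPKM, and 4930481A15Rik, which meets it end to end, had 2.89 and 4.55. The last was Clec2g, described above with Gm15987.

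**Figure D4:**
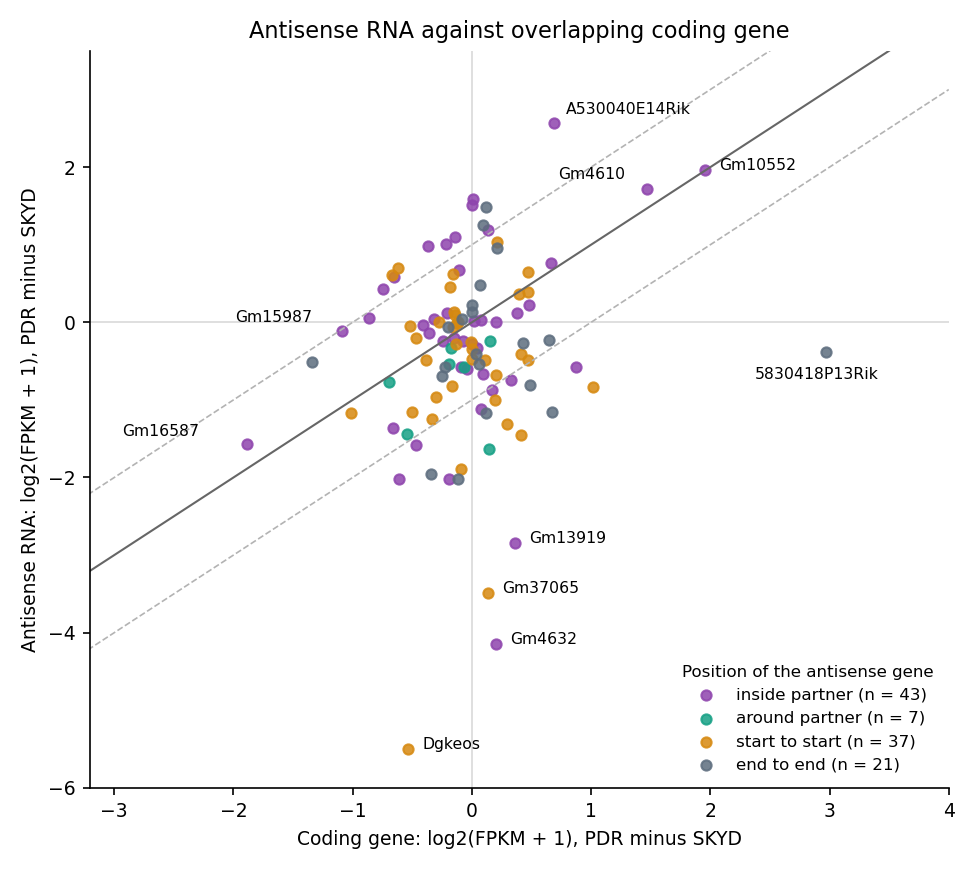
Each point is 1 of 108 pairs, with the difference of the coding gene on the x axis and that of the antisense RNA on the y axis, both as log2(FPKM + 1) in PDR minus SKYD, coloured by the position of the antisense gene. The solid line marks equal differences and the dashed lines a 2-fold gap, outside which 36 pairs fall. Most points form a vertical band, and on this scale 4 coding genes exceed 2-fold in each direction.

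By position, 43 antisense genes lay inside their partner, 37 overlapped start to start, 21 overlapped end to end and 7 reached around the partner. Of those inside, 8 exceeded 2-fold toward PDR and 8 toward SKYD (18.6% each), beside 7.38% and 6.91% of all genes tested. Start to start, the counts were 1 and 9 (2.70% and 24.3%), and end to end 2 and 4 (9.52% and 19.0%). Around the partner they were 0 and 2 of 7. The median difference was -0.03 inside and -0.34 start to start. The start of each antisense gene was also set against that of its partner, or of the nearest opposite-strand coding gene without one. For the 12 with several overlapping coding genes, only the partner was measured, so some starts near another coding gene are missed. Antisense genes with these starts within 1000 bases, the arrangement of a shared promoter, numbered 35. Of these, 2 exceeded 2-fold toward PDR and 4 toward SKYD (17.1% in all, beside 14.3% of all genes tested), and none had a mean above 6.47 FPKM. Of the other 95, 12 and 23 were (36.8% in all), and all of the RNAs above 6.47 FPKM were among them. These shares describe single libraries, without a test.

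The antisense RNAs that start next to a coding start were mostly less abundant than that coding gene, and 10 of the 35 were above it. At the top, 2810001G20Rik had 4.23 FPKM in PDR and 8.71 in SKYD, and Cox10, a heme A synthesis gene whose start is 16 bases away, had 3.69 and 4.73. Gm11423 had 5.97 and 4.66 FPKM beside the DNA ligase gene Lig3, 66 bases away, with 1.34 and 0.385. Next to some abundant genes the antisense RNA was low. AV099323 had 1.02 and 1.09 FPKM, and Pcna, the sliding clamp of DNA replication, had 127 and 139. Gm4285 had 1.18 and 1.11 FPKM beside the translationally controlled tumour protein gene Tpt1 with 483 and 614. These pairs were level in both libraries. 1600020E01Rik, which starts 74 bases from the RNA-binding protein gene Pcbp1, had 2.36 and 3.73 FPKM, where Pcbp1 had 69.4 and 90.8. Of those next to an expressed gene, 4930515G01Rik differed more, with 0.615 FPKM in PDR and 3.43 in SKYD from 18 and 107 reads. Ankrd13a, a ubiquitin-binding protein gene, starts 306 bases from it and had 10.7 and 7.80. Likewise 2510046G10Rik had 1.21 and 3.96 FPKM from 30 and 104 reads, while Sgf29, a subunit of the SAGA histone acetyltransferase, had 11.6 and 16.8.

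Examples of partners far above their antisense RNA, chosen after their values were seen, follow first, and these antisense RNAs were within 2-fold on the log2(FPKM + 1) scale. Gm20234 had 0.950 FPKM in PDR and 2.40 in SKYD, and Slfn2, a Schlafen gene of leukocyte quiescence, had 627 and 446. Gm19261 had 2.76 and 1.93 FPKM beside Ms4a6b, of the MS4A membrane protein family, with 183 and 138. Gm28809, inside the tetraspanin gene Cd9, had 2.94 and 2.81 FPKM, where Cd9 had 138 and 253. Gm13546, inside Cytip, which regulates leukocyte adhesion, had 3.31 and 2.97, and Cytip had 63.7 and 48.8. Gm15441, which reaches around Txnip, the thioredoxin-interacting protein gene, had 0.660 and 1.84 FPKM, and Txnip had 41.4 and 67.5. In contrast, Gm15417 was more than 2-fold higher in SKYD, with 1.99 and 6.07 FPKM from 78 and 253 reads. It overlaps the start of Zbtb7b, which encodes the CD4 lineage factor ThPOK of T cells and had 0.693 and 1.13 FPKM. Gm27008, around the T cell potassium channel gene Kcna3, had 0.0978 and 1.98 FPKM from 4 and 86 reads, and Kcna3 had 1.12 and 2.08. The T lineage markers moved in the same direction as both, and their part was not tested.

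The further antisense RNAs named next were beyond 2-fold on the log2(FPKM + 1) scale and had at most 155 reads in a library. In SKYD these included 9430060I03Rik, around the calpain gene Capn10, with 0.504 FPKM in PDR and 3.67 in SKYD, and Gm14966, Zfp335os, 2900093K20Rik and Gm14718, with differences from -1.16 to just past 2-fold. In PDR these included Gm36551, Gm20717, Gm45014, Gm20319 and Gm38979, with differences from 1.01 to 1.25 and at most 7 reads in SKYD. Of these, Gm20319 had 1.97 and 0.249 FPKM and meets Il1rap, the interleukin 1 receptor accessory protein gene, which was level at 1.09 and 0.954.

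Compared per length, the antisense RNA had a higher mean FPKM than its partner in 53 of 108 pairs, with a median ratio of 0.732. Most of these partners were hardly expressed. The choice of the genes bears on this count, since a partner under 1 FPKM had to lie below its antisense RNA. Among the 74 pairs whose partner reached a mean of 1 FPKM, the antisense RNA was higher in 19 and the median ratio was 0.349. Over partners of any level, the median ratio was 1.64 for genes inside their partner and 0.418 start to start. Besides Gm15987 and Dgkeos, the highest ratios were those of Plxna4os1, Gm10371 and 1700097N02Rik. Plxna4os1, inside the semaphorin receptor gene Plxna4, had 7.90 FPKM in PDR and 10.2 in SKYD against 0.0604 and 0.0312 for Plxna4. Gm10371 had 1.35 and 2.42 FPKM against 0.0541 and 0.00924 for Samd4. 1700097N02Rik had 0.353 and 4.02 against 0.00584 and 0.0741 for Dnah8, an axonemal dynein gene.

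The values were also set beside the overlap of exons. Among antisense genes over a coding gene with a mean of at least 10 FPKM, 15 had at least 90% of their exon bases in exons of that gene, and 14 of these had 0 reads. The exception, Gm37401 over the small GTPase gene Rhoa, had 1 read. The sources used here do not say how reads on exon bases shared by both genes were counted. If such reads were left out, genes with nearly all exon bases shared could have 0 reads at any level. The counts therefore do not show whether the 15 genes were silent. Gm12999, all of whose exon bases lie in exons of Atpif1, an inhibitor of the mitochondrial ATP synthase, had 0 FPKM in both libraries, where Atpif1 had 113 and 199. With 10 to 90% of exon bases shared, 39 of 120 had 0 reads and 9 reached 1 FPKM, and the median ratio to the coding gene was 0.00175. With no shared exon bases, 34 of 84 had 0 reads, 13 reached 1 FPKM and the median ratio was 0.000602. Genes that shared some exon bases but under 10% are not in these counts, though some of them also reached 1 FPKM. None of the 15 reached 1 FPKM. The part of coding reads in the values of any of these antisense genes was not tested. Of the 130 chosen, 56 had all exon bases to themselves and 4 shared more of them than not.

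**Figure D5:**
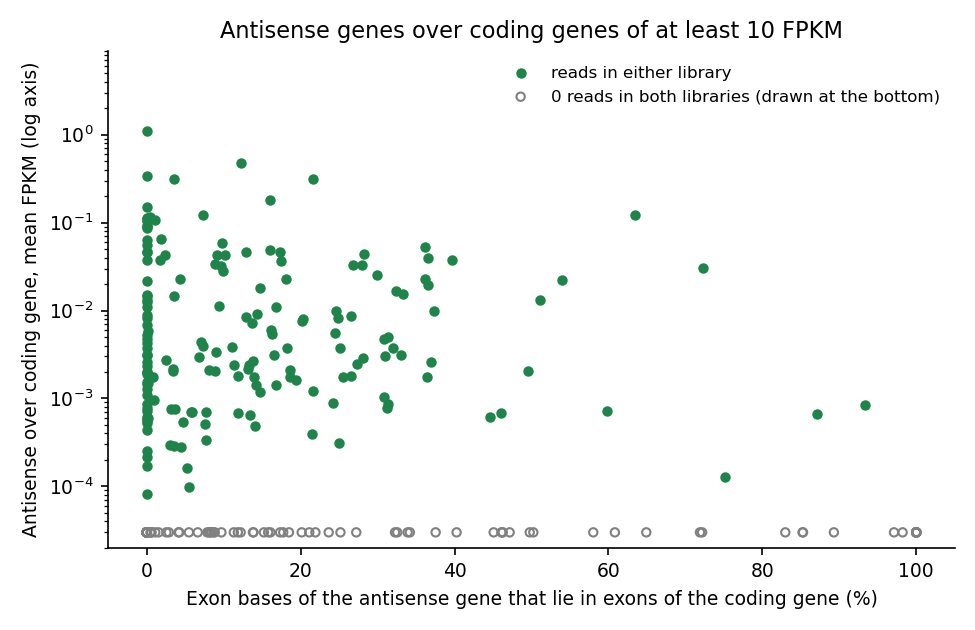
Each point is an antisense gene over a coding gene with a mean of at least 10 FPKM, with the percentage of its exon bases in exons of the coding gene on the x axis and the ratio of antisense to coding mean FPKM on a log y axis, and open circles at the bottom for 0 reads. Of the 15 genes at 90% or more, 14 are open circles. How reads on shared exon bases were counted is not given, so these circles do not show whether those genes were silent.

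From a list of 36 known antisense and host RNAs, 34 were in the table and 13 of any biotype reached 1 FPKM, with 2 more than 2-fold higher in SKYD and none in PDR. Of these, Dgkeos and Zeb2os carry the biotype antisense. Zeb2os had 0.727 FPKM in PDR and 1.89 in SKYD from 34 and 94 reads. Its partner Zeb2, a transcription factor gene important in macrophages, had 1.81 and 1.24, so the pair went in different directions. The antisense RNAs Tsix, Wt1os and Dlx1as had 0 reads in both libraries. Airn, the antisense RNA of the imprinted Igf2r gene, had 41 reads in each.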

How the data were processed

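Each group gave 1 library of macrophage RNA, pooled from 5 mice. The authors aligned filtered reads with TopHat2 2.0.9 on a Bowtie2 2.0.6 index and counted reads per gene with HTSeq 0.6.1, and the submitters' processing notes also name DESeq 3.18.1. They deposited FPKM values with the length, position and biotype of each gene. The deposited table also gives the gene length in bases. The notes name mm9, whereas 98.3% of 54409 shared genes have the positions of GENCODE M21 (GRCm38), which was used for exons. FPKM was multiplied by length and divided by the smallest step to give reads, whole within 0.1 reads.

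Differences are log2(FPKM + 1), PDR minus SKYD, where the mean reached 1 FPKM, and differences beyond 2-fold were counted. Groups came from the labels. No test was made, since each group had 1 library. Partners shared at least 1 base on the opposite strand. RefSeq symbols matched 73 of the 130 genes. The members and lists were chosen with earlier results of these data known. Named were the 10 most abundant antisense RNAs, the 5 largest differences each way, the 5 highest ratios to the partner, the 5 pairs farthest apart each way, genes with at most 3 reads in a library, those of the known list, and the 3 on each side of the rule. All other genes were chosen after their values were seen. A gene pair that fits this rule is not reported here. Alternatives were pseudocounts of 0.1 and 0.01, other filters, TPM, centring, a 4-fold threshold and other choices of partner. The steps were tested on simulated data. The software was matplotlib 3.10.9, scipy 1.17.1, pandas 2.3.3 and numpy 2.4.6 under Python 3.11.15.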

Additional observations from a re-analysis of the deposited data

How the results depend on the processing

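More antisense RNAs were higher in SKYD than in PDR under every filter, pseudocount, scaling and threshold tried. The numbers more than 2-fold higher in PDR and in SKYD were 4 and 9 at a mean of at least 5 FPKM, 2 and 7 at 4-fold, and, as filters added after seeing the data, 4 and 14 at 1 FPKM or more in both libraries and 5 and 17 at 100 reads or more. Of these settings, the shares over all genes were computed only for 1 FPKM or more in both libraries (5.88% and 4.59%). Whether the other counts exceed those of all genes was not tested. The median difference was -0.56 at a mean of at least 5 FPKM, -0.070 with no filter and -0.45 at 100 reads or more. A mean of at least 5 FPKM left 22 pairs, with 11 higher in the same library, 10 apart and 21 antisense RNAs above their partner. A partner under 5 FPKM had to be the lower of the pair there. A partner over at least 50% of the antisense gene left 30, 23 and 31. With partners of at least 1 FPKM, 19 were above their partner. These settings leave fewer genes or pairs, apart from the threshold and no filter. With a pseudocount of 0.1, 53 pairs were apart and not 36. Of the 33 named antisense RNAs, none changed sign. Their differences left the counting interval for 19 with a pseudocount of 0.1, for 23 with 0.01, for 15 as TPM and for 1, Gm16094, with centring, where it stayed at 2.29. The length without shared exon bases, added after seeing the data, put 55 antisense RNAs above their partner.

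No paired analysis was possible because each group had 1 library. Depth limits the 48 antisense RNAs with fewer than 50 reads in each library, and the spread between mice is not measured.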
